A study of Bos taurus with 12 samples.

Results

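Heat shock proteins and chaperones were described across 12 bovine endometrium arrays as a list of 34 genes, taken by name from the gene names, accessions and descriptions in the scanner files. A probe was named for 29 of the 34 genes, and 26 had a probe that could be tested, out of 12404 probes kept from 15208 on the array. A probe was kept when the scanner marked it as well above background on every one of the 3 arrays in some group. Of the other 8 genes, HSPA1L, HSPA4, HSPD1, HSF1 and HSF2 had no probe named for them, and HSPA1A, HSPB8 and SERPINH1 carried a flag for uneven spot pixels on more than 3 arrays.

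The tissue came from Japanese-Black cows on cycle day 15, when a corpus luteum (CL), the progesterone-secreting body of the ovary, was present on 1 side. Biopsies were taken in summer (early September) and autumn (mid-November) over a pair of consecutive years, and the labels do not say which year a sample is from. In each season the uterine horn on the CL side and the horn on the non-CL side were sampled, giving 4 groups of 3 arrays: CL side in summer, non-CL side in summer, CL side in autumn and non-CL side in autumn. The labels name no treatment and no genetic change, so season and side were the variables compared. The labels give no age for the cows and do not say that replicates came from separate animals, so p-values measure only the spread between these samples, which may be technical.

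Chaperones hold unfolded or newly made proteins, help them fold and pass damaged ones on for disposal. When cells are heated or otherwise stressed, unfolded proteins draw chaperones away from heat shock factor 1, which then switches on the inducible HSP70, HSP110 (HSPH1), HSP40 (DNAJB1), small heat shock protein and BAG3 genes. A constitutive set, such as HSPA8, the HSP90 genes and the cytosolic chaperonin, works in unstressed cells as well, and in the uterus the HSP90 machine with its co-chaperone FKBP4 keeps the progesterone receptor ready for hormone.

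The probes of 6 genes are shown because what they match limits what was read. Each probe is a 60-base oligonucleotide, written 5′ to 3′ in lower case from the array files. All 60 bases are given for HSPA1B, the last 30 for HSPA1A and the first 30 for the rest.
HSPA1B: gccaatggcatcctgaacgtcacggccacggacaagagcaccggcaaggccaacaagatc
HSPA1A: tttctgtttacttccaagtaAATAAActca
HSPH1: ttgtacagtgcgttgtcatgtggaggtgcg
HSPA8: cccaccattgaagaggttgattaagccagc
DNAJB1: actgccaacacaagaccaaagtgtgtgact
CRYAB: aaagttccccaccagtgaatgaaaaccttg
The capitals in the HSPA1A probe mark AATAAA, the usual polyadenylation signal, searched in the probe's own 5′ to 3′ direction only. It was in 11.3% of all non-control probes and in 2 of the 26 probes tested here. The HSPA1B probe holds 60% G and C, against a median of 43.3% over all non-control probes, and 3.97% of them reach that share. HSPA1A and HSPA1B are near-identical copies, and the RefSeq gene table lists the accession of the HSPA1B probe under HSPA1A with HSPA1B as a synonym, so its signal is uncertain between the copies. Among the 26 probes, 25 shared no run of 20 bases with any other non-control probe, on either strand. The exception was the FKBP4 probe, which shares 56 of its 60 bases with a probe that the files name only by an expressed sequence tag.

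Levels below are log2 of a signal divided by its array's 75th percentile, so each unit is a doubling, and changes are differences of group means of these levels. The signals of all 26 genes stood well above background on every array, and none was saturated. The labelled tissue was checked on uterine markers: 6 of 7 had a probe that could be used, among them the progesterone receptor PGR, the homeobox gene HOXA10 and SERPINA14, the uterine milk protein, each well above background on 12 arrays. CL-side summer replicate 2 was dim, with a 75th percentile of raw intensity of 2007, where the other 11 arrays had 3516 to 4418. Its median correlation with those arrays was 0.928, and they correlated with each other at 0.972 or more. It also departed on uterine markers. HOXA10 read −0.13 there (2.81 to 3.55 on the other 11), FOXL2 −2.38 (0.36 to 1.44) and PGR −1.71 (−1.21 to −0.86). SERPINA14 and MSX1 lay within the range of the other arrays. ESR1, close to the floor of −7.28, read −6.26. Slide 1 of 2 held all 6 summer arrays and autumn replicate 1 of both sides, and slide 2 held autumn replicates 2 and 3 of both sides, so season was only partly separable from slide.

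No chaperone gene passed an adjusted p of 0.05 (limma, Benjamini-Hochberg over all kept probes) for season or for side. The same held for all probes in each of the 6 comparisons, so the share called was 0%. At an unadjusted p under 0.05, limma gave 1 of 26 chaperone genes for season on the CL side (9.92% of all probes), 0 on the non-CL side (1.12%), and 1 over both sides (4.02%). It gave 0 for side in summer (1.41%), 0 for side in autumn (1.86%) and 0 for the difference of the season change between the sides (1.88%). With replicate numbers as a block, limma gave 2 genes for season on the CL side, HSPH1 and HSPA9 (1602 of 12381 probes), and 1 on the non-CL side, HSPH1 (244 of 12383 probes). The labels do not say that equal numbers belong together across seasons. Leaving out 1 array at a time gave 0 to 3 genes on the CL side (678 to 2084 of all probes), and 0 to 1 on the non-CL side (56 to 368). With the dim array left out it gave 0 genes on the CL side (678 of 12370 probes). HSPH1 was the gene in both season counts, with a log2 change of −0.57 ± 0.20 (SE, n = 3 against 3) on the CL side. DNAJB1, a heat-inducible J-domain protein, had changes of 0.43 ± 0.22 on the CL side and 0.34 ± 0.22 on the non-CL side, neither past the threshold. HSPA8, the constitutive HSP70, had changes of −0.27 ± 0.15 and −0.20 ± 0.15. In bulk tissue, fewer cells of a type and less RNA per cell cannot be told apart. Of 13 marker lists, whose scores are defined with the tissue markers further on, 7 did not overlap between the seasons on the CL side. In summer, scores were higher for granulocytes (4 of 5 markers measured, 1.27 to 2.76 against −1.05 to −0.09 in autumn) and squamous epithelium (5 of 5, 0.14 to 1.93 against −0.88 to −0.5). They were also higher for T and NK cells (6 of 6, 0.25 to 1.04 against −0.58 to −0.18), epithelium (7 of 8, −0.18 to 1.28 against −0.35 to −0.22) and red cells (1 of 4, −0.04 to 0.5 against −0.25 to −0.08). The red cell score is ALAS2 alone, since the globin probes HBA and HBB were too dim to be kept. Scores were lower in summer for stroma (8 of 8, −1.41 to 0.17 against 0.33 to 0.72) and uterine markers (6 of 7, −0.96 to 0.08 against 0.24 to 0.62). Their part in the chaperone values was not tested.

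**Figure D1:**
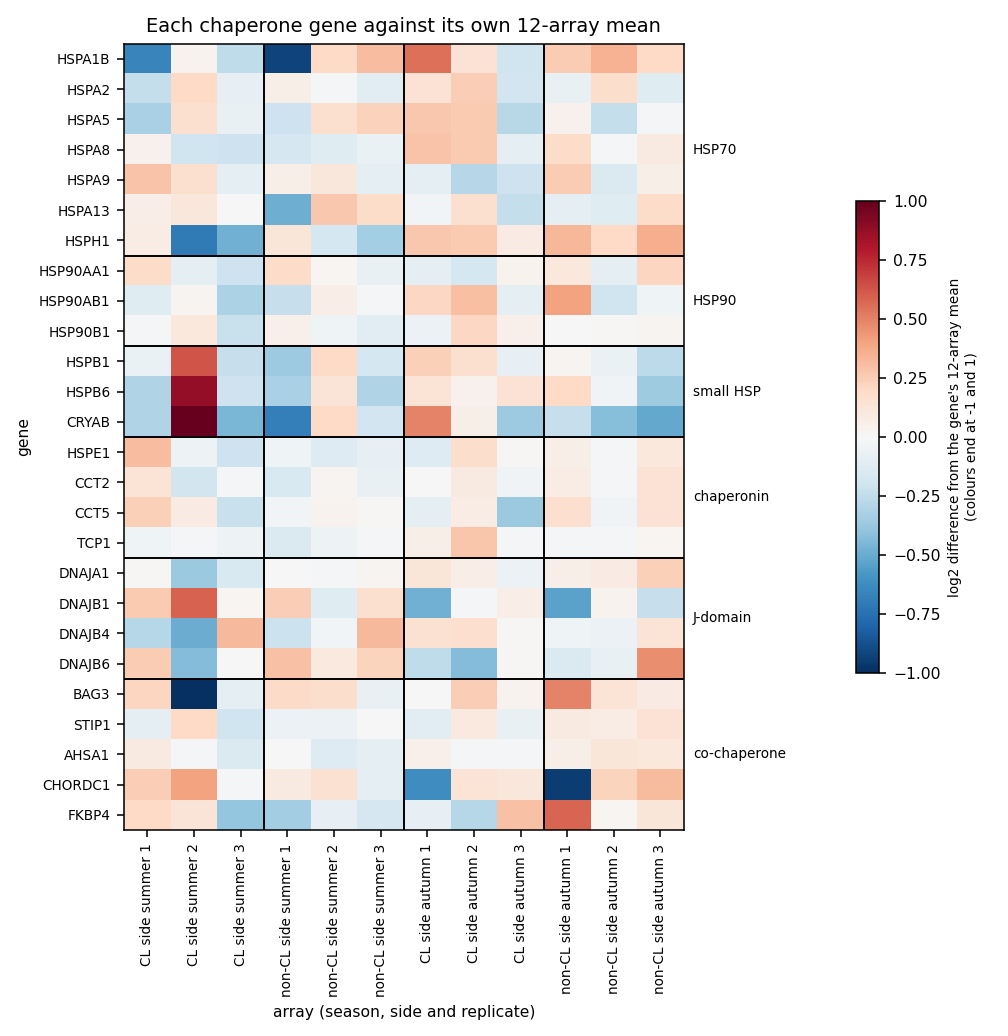
Heat map of 26 chaperone genes (rows, by class) on 12 arrays (columns, by season, side and replicate). Colour is the log2 difference from the gene's own 12-array mean, ending at −1 and 1. CL-side summer replicate 2 stands out with high CRYAB, HSPB6 and HSPB1 and low BAG3 and HSPH1, and both autumn replicate 1 arrays stand out with low CHORDC1 and DNAJB1.

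The genes differed widely in how much they varied from array to array. The range over the 12 arrays was 3.11 log2 units for CRYAB, a small heat shock protein abundant in muscle, 1.88 for BAG3, which feeds misfolded proteins to autophagy, and 1.47 for HSPA1B. It was 0.26 for AHSA1, the activator of the HSP90 ATPase, and 0.33 for the chaperonin subunit CCT2. The dim array, CL-side summer replicate 2, held the lowest value of 6 genes and the highest value of another 6. CL-side summer replicate 3 held the lowest value of 8 genes and the highest of none, including all 3 HSP90 genes, HSPA8, HSPE1, STIP1, AHSA1 and FKBP4.

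Season was compared first, within each side, beginning with the HSP70 and HSP110 class. HSPH1 encodes HSP110, which recharges HSP70 by nucleotide exchange and is induced by heat. Its levels were 2.26, 1.48 and 1.71 on the CL side in summer and 2.46, 2.45 and 2.27 on the CL side in autumn. The non-CL side gave 2.31, 2.01 and 1.85 in summer and 2.52, 2.39 and 2.55 in autumn. Every summer value lay below every autumn value of the same side, on both sides. The CL-side change of −0.57 is 1.49-fold lower in summer (95% confidence interval of the log2 change −1.02 to −0.13), with limma's unadjusted p of 0.0169 and adjusted p of 0.496. On the non-CL side the change was −0.43 ± 0.20, 1.34-fold lower (−0.88 to 0.021), with limma's unadjusted p of 0.0599 and adjusted p of 1. Over both sides, with same-numbered horns averaged, HSPH1 had a change of −0.50 ± 0.18, with limma's unadjusted p of 0.0278 and adjusted p of 0.895. Leaving out the dim array moved the CL-side change to −0.41, with limma's unadjusted p of 0.0622, and leaving out CL-side summer replicate 3 moved it to −0.52, with limma's unadjusted p of 0.0525. With the replicate block, a pairing that the labels do not give, limma's unadjusted p-values were 0.00903 on the CL side and 0.0352 on the non-CL side. With slide as a block the changes were −0.63 and −0.48, with limma's unadjusted p-values of 0.0366 and 0.0939. Over both sides that block gave −0.55, with limma's unadjusted p of 0.0944. On slide 1 alone, with a single autumn array per side, the changes were −0.64 and −0.47. The season change of HSPH1 did not differ between the sides beyond its error (−0.15, interval −0.78 to 0.49).

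**Figure D2:**
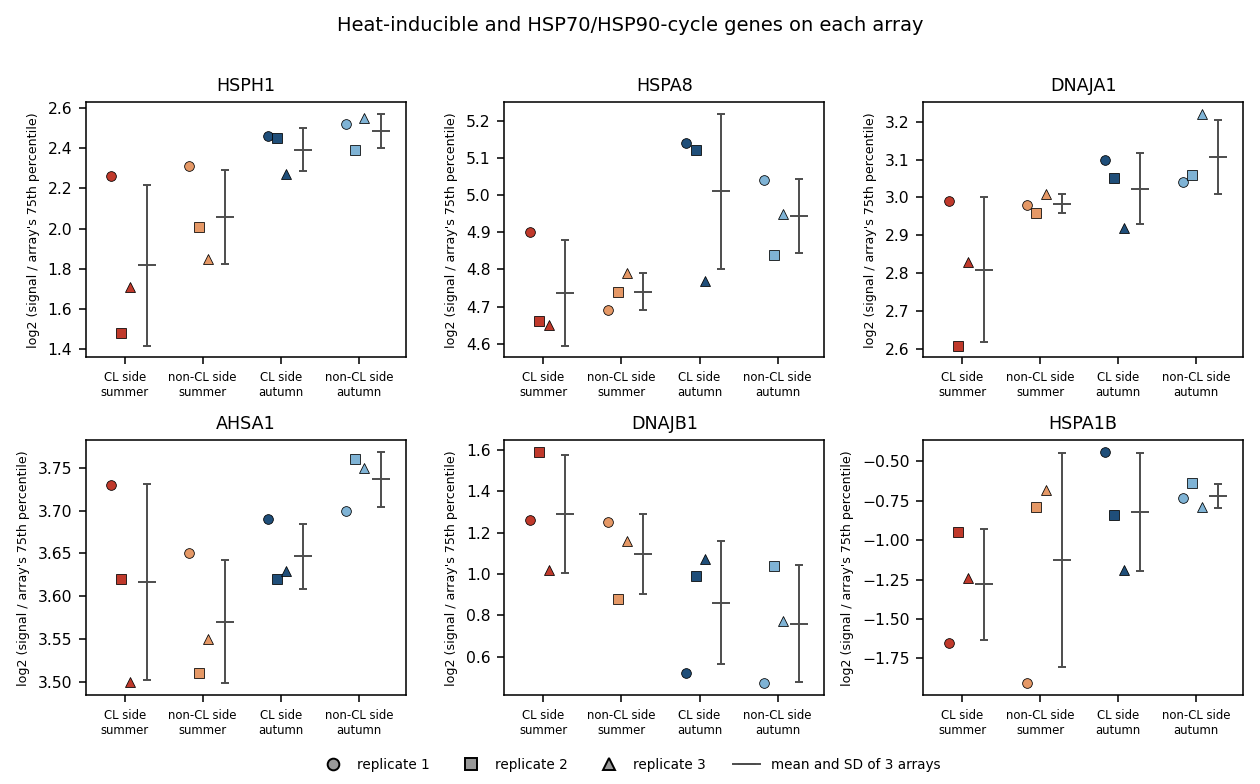
Levels of HSPH1, HSPA8, DNAJA1, AHSA1, DNAJB1 and HSPA1B (log2 of signal over the array's 75th percentile, each panel with its own axis) by group, 1 symbol per array with its replicate number, beside the mean and SD of 3 arrays. HSPH1 lies lower in summer on both sides, and DNAJB1 is lowest on both autumn replicate 1 arrays, at 0.52 and 0.47.

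HSPA8 is the constitutive cytosolic HSP70. Its levels on the CL side were 4.90, 4.66 and 4.65 in summer and 5.14, 5.12 and 4.77 in autumn. Non-CL-side levels were 4.69, 4.74 and 4.79 in summer and 5.04, 4.84 and 4.95 in autumn. The groups overlapped on the CL side and were apart on the non-CL side. The change was −0.27 ± 0.15 on the CL side (interval −0.59 to 0.049) and −0.20 ± 0.15 on the non-CL side (−0.52 to 0.12), with adjusted p-values in limma of 0.510 and 1.

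The HSPA1B probe, for the stress-inducible HSP70, read −1.65, −0.95 and −1.24 on the CL side in summer and −0.44, −0.84 and −1.19 in autumn. In the opposite horn it read −1.91, −0.79 and −0.68 in summer and −0.73, −0.64 and −0.79 in autumn. Its lowest values came from summer replicate 1 of both sides, and the other summer values overlapped with autumn. The change was −0.46 ± 0.33 on the CL side and −0.40 ± 0.33 on the non-CL side. Without CL-side autumn replicate 1 the CL-side change was −0.26, and without non-CL-side summer replicate 1 the non-CL-side change was −0.012. The HSPA1A probe was flagged on 10 of 12 arrays and could not be tested. With flagged spots kept it read 2.44 to 3.39, and its season changes were 0.17 on the CL side and −0.22 on the non-CL side.

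HSPA9, the mitochondrial HSP70, read −1.35, −1.47 and −1.72 on the CL side in summer and −1.73, −1.92 and −1.84 in autumn. It was the only gene of the 26 higher in summer with no overlap on the CL side, where the change was 0.32 ± 0.15 (interval −0.023 to 0.65, limma's unadjusted p of 0.0645 and adjusted p of 0.502). With the replicate block limma's unadjusted p was 0.0499. With slide as a block that change was 0.17. In the non-CL horn HSPA9 read −1.57, −1.52 and −1.73 in summer and −1.38, −1.78 and −1.57 in autumn, with a change of −0.031 ± 0.15.

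The rest of the class lay nearer to no change. HSPA5, the HSP70 of the endoplasmic reticulum and a marker of unfolded protein there, had changes of −0.17 ± 0.20 on the CL side and 0.13 ± 0.20 on the non-CL side. HSPA13, a microsomal HSP70, had changes of 0.090 ± 0.21 and 0.0014 ± 0.21. HSPA2, which the files carry under the older name HSPA3, had changes of −0.11 ± 0.17 and −0.018 ± 0.17.

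None of the 3 HSP90 genes passed the test for season on either side. HSP90AA1, the stress-inducible cytosolic form, read 4.64, 4.37 and 4.25 on the CL side in summer and 4.37, 4.28 and 4.49 in autumn. Non-CL-side values were 4.64, 4.48 and 4.38 in summer and 4.56, 4.36 and 4.67 in autumn. Its changes were 0.042 ± 0.15 (interval −0.29 to 0.38) and −0.029 ± 0.15 (−0.36 to 0.31). HSP90AB1, the constitutive cytosolic form, had changes of −0.28 ± 0.19 and −0.11 ± 0.19. With slide as a block these became −0.48 and −0.32, with adjusted p-values in limma of 0.460 and 1. HSP90B1, the form of the endoplasmic reticulum also called GRP94, had changes of −0.11 ± 0.13 and −0.047 ± 0.13.

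DNAJB1, the J-domain protein that delivers clients to HSP70 under heat stress, ran opposite to HSPH1. On the CL side it read 1.26, 1.59 and 1.02 in summer and 0.52, 0.99 and 1.07 in autumn. The non-CL horn gave 1.25, 0.88 and 1.16 in summer and 0.47, 1.04 and 0.77 in autumn. The groups overlapped on both sides, and autumn replicate 1 gave the lowest value of each side. The change was 0.43 ± 0.22 on the CL side, 1.34-fold higher in summer (interval −0.060 to 0.91), and 0.34 ± 0.22 on the non-CL side (−0.15 to 0.82). Limma's adjusted p-values were 0.510 and 1. Without autumn replicate 1 of the same side the change was 0.26 on the CL side and 0.19 on the non-CL side, and without the dim array 0.28 on the CL side. The autumn replicate 1 arrays share slide 1 with summer, and the estimate moved with slide. As a block, slide gave 0.74 and 0.65, with limma's unadjusted p-values of 0.00737 and 0.0142 and adjusted p-values of 0.313 and 0.830. On slide 1 alone, with a single autumn array per side, the changes were 0.76 and 0.63, with adjusted p-values in limma of 0.859 and 1.

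DNAJA1, a constitutive J-domain partner of HSPA8, read 2.99, 2.61 and 2.83 on the CL side in summer and 3.10, 3.05 and 2.92 in autumn. Non-CL-side values were 2.98, 2.96 and 3.01 in summer and 3.04, 3.06 and 3.22 in autumn. The groups were apart on the non-CL side, by a change of −0.12 ± 0.13, and overlapped on the CL side, with a change of −0.21 ± 0.13. DNAJB4 had changes of −0.27 ± 0.21 and 0.015 ± 0.21. DNAJB6, which holds back protein aggregation, had changes of 0.16 ± 0.22 and 0.12 ± 0.22.

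Among the co-chaperones, FKBP4 is the immunophilin that works with HSP90 on steroid receptors. Non-CL-side levels were 1.25, 1.52 and 1.43 in summer and 2.18, 1.62 and 1.72 in autumn, with no overlap. The change there was −0.44 ± 0.22, 1.35-fold lower in summer (interval −0.93 to 0.056, limma's adjusted p of 1), and −0.27 without non-CL-side autumn replicate 1. On the CL side the levels were 1.80, 1.73 and 1.21 in summer and 1.52, 1.31 and 1.89 in autumn, and the change was 0.0078 ± 0.22. The difference of these 2 changes was 0.45 ± 0.31 (interval −0.25 to 1.14), with limma's unadjusted p of 0.186. The overlapping tag probe, read from a separate spot, gave −0.36 on the non-CL side, 0.019 on the CL side and a difference of 0.37.

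AHSA1, which speeds the ATPase of HSP90, read 3.73, 3.62 and 3.50 on the CL side in summer and 3.69, 3.62 and 3.63 in autumn. The non-CL side gave 3.65, 3.51 and 3.55 in summer and 3.70, 3.76 and 3.75 in autumn. The non-CL-side values were apart, with a change of −0.17 ± 0.12, and the CL-side change was −0.036 ± 0.12. STIP1, the adaptor that joins HSP70 to HSP90, was apart as well on the non-CL side, at 1.04, 1.04 and 1.1 in summer and 1.19, 1.18 and 1.25 in autumn. Its changes were −0.15 ± 0.14 on the non-CL side and −0.0042 ± 0.14 on the CL side.

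CHORDC1, an HSP90 co-chaperone, read −1.78, −1.63 and −2.04 on the CL side in summer and −2.65, −1.89 and −1.92 in autumn. In the non-CL horn it read −1.94, −1.88 and −2.13 in summer and −2.98, −1.81 and −1.71 in autumn. The low values were autumn replicate 1 of both sides, the autumn arrays that share a slide with summer. The change was 0.33 ± 0.33 on the CL side and 0.19 ± 0.33 on the non-CL side. Within slide 1 it was 0.83 and 0.998, and with slide as a block 0.98 and 0.84. With the block limma's unadjusted p-values were 0.000684 on the CL side and 0.00200 on the non-CL side, and its adjusted p-values 0.204 and 0.581. Without CL-side autumn replicate 1 the CL-side change was 0.084, and without non-CL-side autumn replicate 1 the non-CL-side change was −0.22.

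BAG3, a co-chaperone that releases clients from HSP70, read 3.32, 1.72 and 3.01 on the CL side in summer and 3.10, 3.35 and 3.14 in autumn. Non-CL-side values were 3.30, 3.28 and 3.03 in summer and 3.6, 3.24 and 3.19 in autumn. The groups overlapped on both sides, and the dim array held the one low value. The change was −0.52 ± 0.34 on the CL side (interval −1.26 to 0.23, limma's adjusted p of 0.567) and −0.14 ± 0.34 on the non-CL side. Without the dim array the CL-side change was −0.035.

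The season changes of the 4 chaperonin genes were at most 0.16 in size. HSPE1, the mitochondrial lid of the HSPD1 cage, read 3.58, 3.22 and 3.06 on the CL side in summer and 3.14, 3.45 and 3.28 in autumn. The non-CL side gave 3.23, 3.14 and 3.19 in summer and 3.33, 3.25 and 3.38 in autumn, with no overlap and a change of −0.13 ± 0.15. CCT2, CCT5 and TCP1 are subunits of the cytosolic chaperonin that folds actin and tubulin. On the CL side their changes were −0.038 ± 0.13, 0.16 ± 0.16 and −0.14 ± 0.12, and on the non-CL side −0.13 ± 0.13, −0.084 ± 0.16 and −0.058 ± 0.12. The second probe of TCP1 gave 0.023 on the CL side and −0.18 on the non-CL side.

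The small heat shock proteins are holders of unfolded protein that work without ATP, and among them CRYAB had the widest error of the 26 genes. HSPB1 had season changes of 0.0070 ± 0.23 on the CL side and −0.016 ± 0.23 on the non-CL side. HSPB6 had changes of 0.013 ± 0.29 and −0.10 ± 0.29. CRYAB had changes of 0.49 ± 0.63 (interval −0.90 to 1.89) and 0.16 ± 0.63, and without the dim array the CL-side value was −0.44.

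Counted together, 11 of 26 genes lay above 0 and 15 below 0 for season on the CL side, where 6559 of 12381 probes in all lay above and 5822 below. The median change was −0.020, beside 0.023 over all probes. Leaving out 1 array at a time moved that median between −0.10, without CL-side summer replicate 2, and 0.052, without CL-side summer replicate 3, where 14 of 26 lay above 0. For the non-CL side 7 lay above 0 and 19 below, where 6184 of 12383 probes lay above and 6197 below, and the medians were −0.071 and −8.2e-05. Over both sides 8 lay above 0 and 18 below, where 6524 of 12391 probes lay above and 5867 below, with medians of −0.072 and 0.014. By class on the non-CL side, all 4 chaperonins and all 3 HSP90 genes lay below 0, as did 5 of 7 HSP70 genes and 4 of 5 co-chaperones. Of the J-domain genes 3 of 4 lay above 0.

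On the non-CL side 7 of 26 genes, 26.9%, had every summer array below every autumn array (3.45% of all probes did): HSPA8, HSPH1, HSPE1, DNAJA1, STIP1, AHSA1 and FKBP4. None had every summer array above (2.62% of all probes). On the CL side HSPH1 alone was below without overlap (5.02% of all probes) and HSPA9 alone above (7.97%). With same-numbered horns averaged, HSPA8, HSPH1, CCT2, TCP1, DNAJA1 and AHSA1 were below without overlap (5.13% of all probes), and DNAJB1 was above (5.47%). With all 6 summer arrays set against all 6 autumn arrays, no chaperone gene was apart in either direction (0.399% of all probes below, 0.310% above). Among the 13 marker lists, 2 did not overlap between the seasons on the non-CL side. Endothelium (5 of 5 markers) scored 0.06 to 0.32 in summer and −0.22 to 0 in autumn, and cell cycle genes (5 of 6) −0.29 to −0.18 against −0.13 to −0.05. Their part in the chaperone counts was not tested. These counts share the same scaling of each array, and the genes are not independent replicates.

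**Figure D3:**
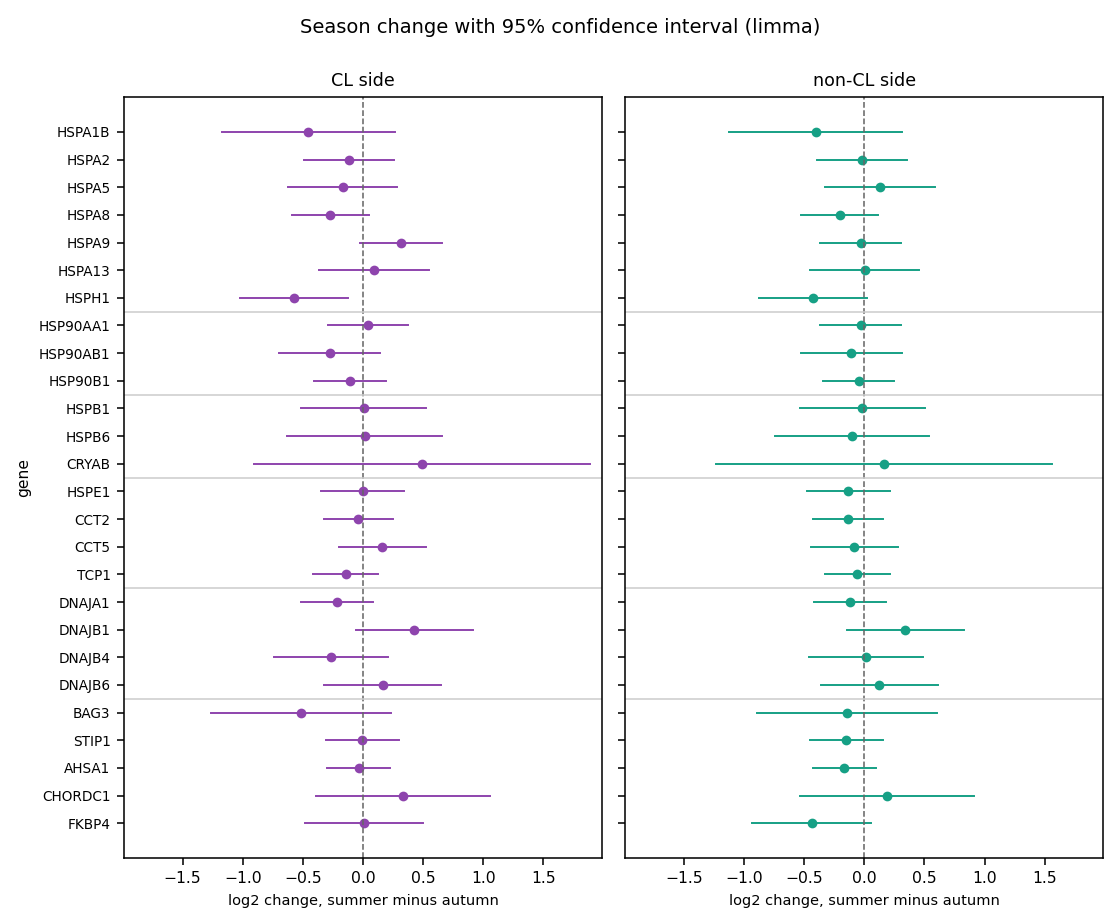
Season change of 26 chaperone genes, as the log2 change from autumn to summer with its 95% confidence interval from limma, on the CL side (left) and the non-CL side (right). HSPH1 on the CL side (−0.57) is the one gene whose interval does not reach 0, and the CRYAB interval is the widest.

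Horn side was compared next, to ask whether the horn next to the corpus luteum differed from the opposite horn. In summer 14 of 26 genes lay above 0 and 12 below 0 for the CL side minus the non-CL side, where 6062 of 12389 probes lay above and 6327 below. The median difference was 0.018, beside −0.0060 over all probes, and −0.039 to 0.065 with 1 array left out at a time. No gene was apart in summer in either direction (1.88% of all probes higher, 1.65% lower). In autumn 12 lay above 0 and 14 below, where 5273 of 12378 probes lay above and 7095 below, with medians of −0.026 and −0.037. The first was −0.088 to 0.0087 with 1 array left out at a time. AHSA1 was the one gene apart in autumn, lower on the CL side at 3.69, 3.62 and 3.63 against 3.70, 3.76 and 3.75 (5.55% of all probes were lower without overlap, 2.35% higher).

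The summer side differences with the greatest size came from CRYAB and BAG3, and both rested on the dim array. CRYAB read −1.53, 1.2 and −1.68 on the CL side and −1.91, −1.03 and −1.42 on the non-CL side. The difference was 0.78 ± 0.63, and −0.15 without CL-side summer replicate 2. For BAG3, with its low value on the dim array, the difference was −0.52 ± 0.34, and −0.043 without that array. HSPB6 read −2.12, −0.94 and −2.02 against −2.14, −1.69 and −2.12, a difference of 0.29 ± 0.29, which was −0.085 without the array. HSPB1 differed by 0.22 ± 0.23 and by −0.034 without the array.

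In autumn the lowest unadjusted p-values for side were those of HSPA9, DNAJB6 and CCT5, at 0.126, 0.195 and 0.200 in limma. DNAJB6 read 1.91, 1.73 and 2.18 on the CL side and 2.02, 2.09 and 2.63 on the non-CL side, a difference of −0.30 ± 0.22. HSPA9 differed by −0.25 ± 0.15 and CCT5 by −0.22 ± 0.16. Limma's adjusted p was 1 for all 3. DNAJB6 was lower on the CL side for each of the 3 replicate numbers in summer and in autumn. Its summer difference was −0.26 ± 0.22, with limma's unadjusted p of 0.257, and its arrays overlapped between the sides in both seasons. The labels do not give the numbers as pairs, and the share of all probes with such signs was not counted.

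**Figure D4:**
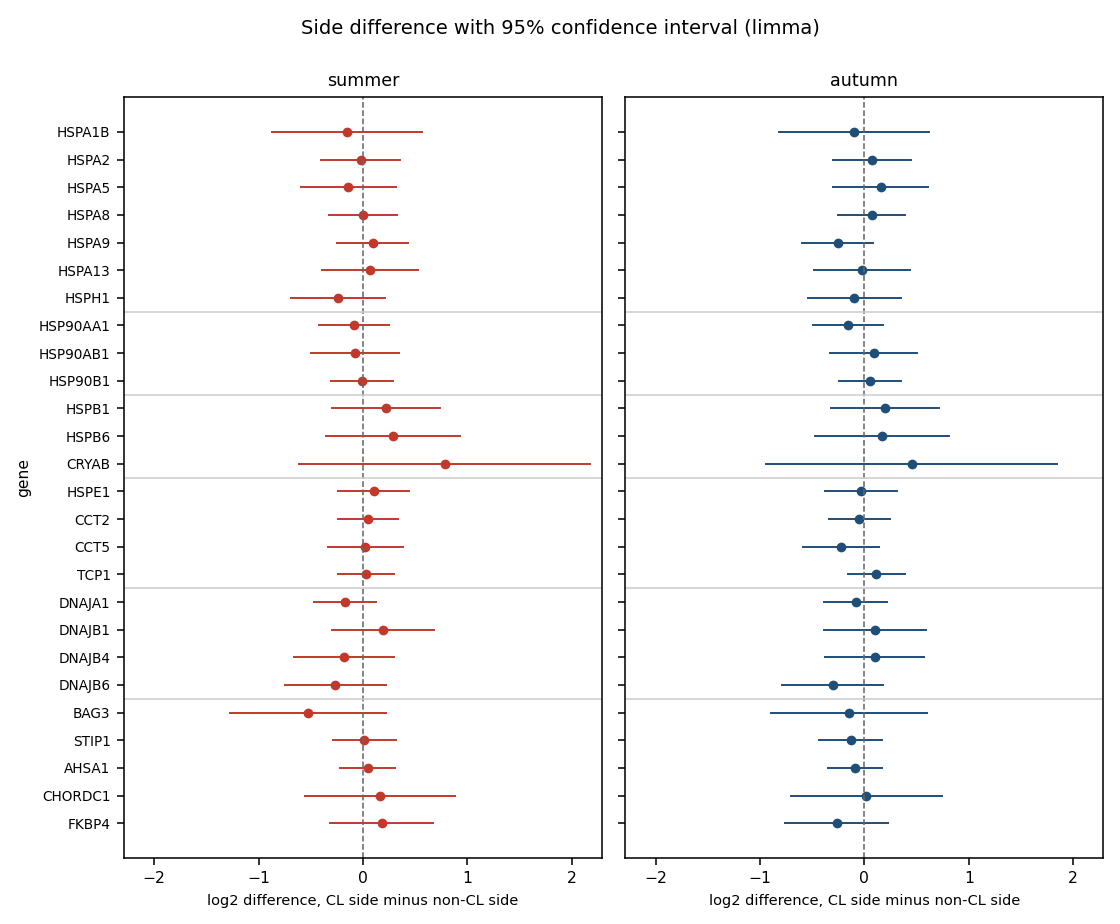
Side difference of 26 chaperone genes, as log2 CL side minus non-CL side with its 95% confidence interval from limma, in summer (left) and autumn (right). Every interval spans 0, and the summer values of CRYAB (0.78) and BAG3 (−0.52) lie farthest from it.

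Markers of other tissue parts were set beside the small heat shock proteins and BAG3. A score is the mean log2 difference of a list's genes from their 12-array means. On the dim array the smooth muscle score was 1.55, the epithelium score 1.28 and the stroma score −1.41. Smooth muscle matters here because CRYAB, HSPB6 and HSPB8 are abundant in muscle cells. Its score was 1.97 on CL-side autumn replicate 1, 1.04 on non-CL-side autumn replicate 2 and 0.88 on non-CL-side summer replicate 2, and at most 0.05 on the other 8 arrays. CRYAB was second highest on CL-side autumn replicate 1, at −0.73, and next highest on non-CL-side summer replicate 2, at −1.03. It read −1.65 on non-CL-side autumn replicate 2. On these arrays, in that order, HSPB6 read −1.68, −1.69 and −1.85 and BAG3 3.10, 3.28 and 3.24. All these HSPB6 and BAG3 values lay within the range of the arrays with low smooth muscle scores. HSPB1 was highest on the dim array, at 3.91, and read 3.52, 3.48 and 3.22 on these arrays in the same order. On the arrays with low smooth muscle scores HSPB1 read 2.92 to 3.44. The summed signal of the 7 of 10 smooth muscle markers measured was 20.1 to 129 times the array's 75th percentile on the CL side in summer and 17.0 to 56.6 on the non-CL side. In autumn it was 17.8 to 113 and 11.3 to 66.9. For the 8 of 8 stroma markers the sums were 56.2 to 144, 126 to 137, 152 to 180 and 123 to 136 in the same order of groups. For the 7 of 8 epithelium markers they were 27.6 to 63.3, 27.1 to 32.5, 20.7 to 27.9 and 25.5 to 37.2. Their part in the chaperone values was not tested.

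**Figure D5:**
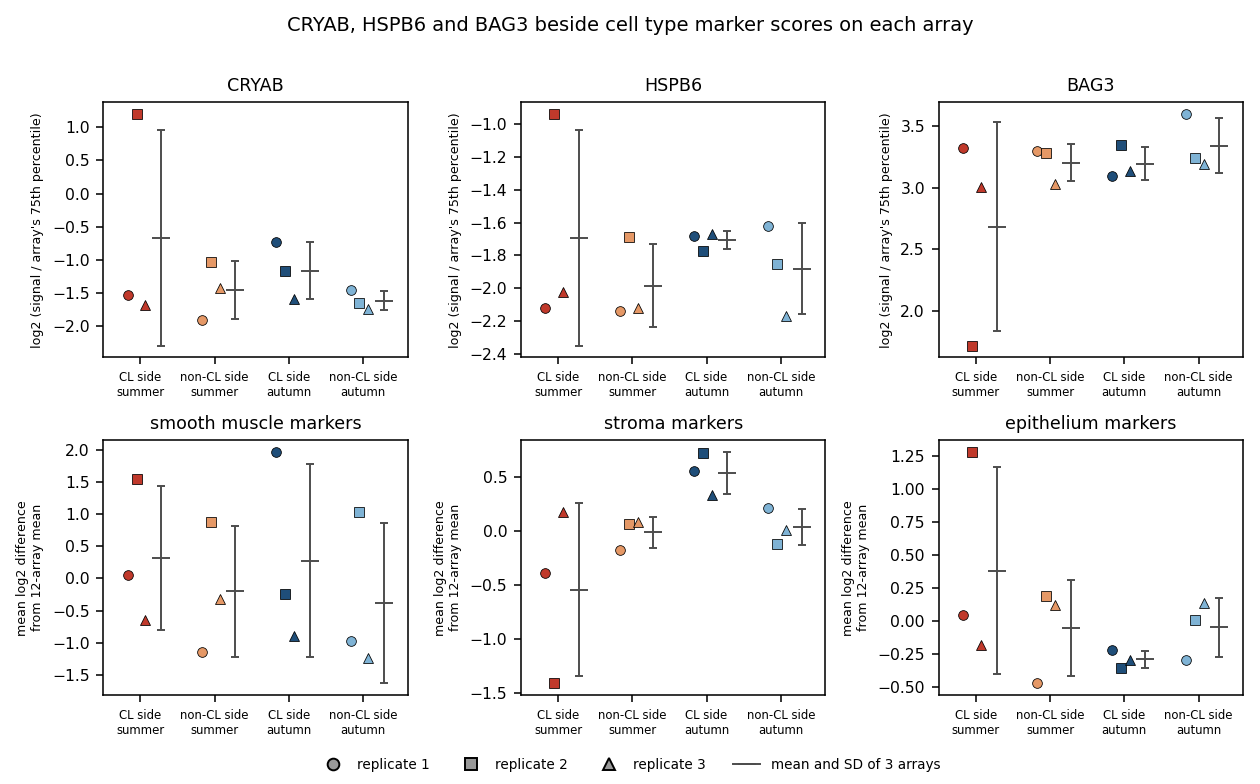
Levels of CRYAB, HSPB6 and BAG3 (top, log2 of signal over the array's 75th percentile) and scores of smooth muscle, stroma and epithelium markers (bottom, mean log2 difference from the 12-array mean) by group, 1 symbol per array with its replicate number, beside the mean and SD of 3 arrays. CL-side summer replicate 2 is the top array for CRYAB (1.2) and epithelium (1.28), and the bottom array for BAG3 (1.72) and stroma (−1.41).

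HSPB8, the small heat shock protein that works with BAG3, and SERPINH1, the collagen chaperone HSP47, are given as values only because of their flags. HSPB8 was flagged on 7 arrays and read 1.17 to 3.53 with the flagged spots kept. Its highest values, 3.53, 3.28 and 3.12, lay on non-CL-side autumn replicate 2, CL-side autumn replicate 1 and CL-side summer replicate 2, 3 arrays with smooth muscle scores above 1. SERPINH1 was flagged on 8 arrays and read 2.55, 2.03 and 2.94 on the CL side in summer and 3.18, 3.72 and 3.12 in autumn. In the non-CL horn it read 2.22, 3.06 and 3.03 in summer and 3.01, 2.93 and 2.76 in autumn. It was lowest on the dim array, where the stroma score was lowest as well.

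Immediate early genes, which respond within minutes to stress or handling, were set beside the inducible chaperones. Their score over 11 of 12 genes was −0.36, 1.50 and 1.43 on the CL side in summer and −1.42, 0.93 and 1.54 on the non-CL side. In autumn it was −0.52, −0.05 and −0.95, and −1.17, −1.08 and 0.16. Summer replicate 1 of both sides, where HSPA1B was lowest, had the lowest summer scores. HSPH1 was at its highest summer values there, 2.26 and 2.31, and DNAJB1 read 1.26 and 1.25. HSPA1B was highest, at −0.44, on CL-side autumn replicate 1, where the score was −0.52. The summed signal was 22.7 to 79.4, 12.1 to 83.0, 12.7 to 22.5 and 13.5 to 29.9 times the 75th percentile in the order above. Their part in the chaperone values was not tested.

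A test of 5 gene pairs asked whether chaperones that share an inducer, a compartment or a complex moved together across the 12 arrays. Arrays were taken without regard to season, side, slide or replicate number, so differences between groups enter the correlations and their p-values. CRYAB and HSPB6 were high and low on the same arrays, with Pearson's r of 0.877 (permutation p = 0.00166, adjusted over 5 pairs 0.0083) and Spearman's rho of 0.678 (permutation p = 0.0180, adjusted 0.0451). Without the 2 arrays farthest from the CRYAB median, r was 0.565 (permutation p = 0.0940, adjusted 0.193) and rho 0.564 (permutation p = 0.0985, adjusted 0.164). Without the dim array alone, r was 0.612 (permutation p = 0.0468, adjusted 0.153). Both measures stayed above 0 on fewer arrays but did not pass the adjusted threshold. HSPH1 and DNAJB1, both targets of heat shock factor 1, ran in opposite directions, with r of −0.660 (permutation p = 0.0196, adjusted 0.0491) and rho of −0.692 (permutation p = 0.0159, adjusted 0.0451). Their season changes had opposite signs on both sides, so this correlation is not separate from season. Without the 2 arrays farthest from the HSPH1 median, r was −0.525 (permutation p = 0.112, adjusted 0.193) and rho −0.697 (permutation p = 0.0302, adjusted 0.108). CCT2 and CCT5 gave r of 0.391 and rho of 0.517 (permutation p = 0.207 and 0.0885), and without the dim array r of 0.579 and rho of 0.709 (permutation p = 0.0611 and 0.0178, adjusted 0.153 and 0.0889). HSPA5 with HSP90B1 gave r of 0.0731 and rho of −0.0629 (permutation p = 0.827 and 0.851). HSP90AA1 with HSPA8 gave r of 0.00963 and rho of 0.0699 (permutation p = 0.976 and 0.832). These 3 pairs had adjusted p-values of 0.345 or more for r.

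A wider list of 66 other chaperone genes, among them more chaperonin and prefoldin subunits, J-domain and BAG proteins, had 36 genes with a usable probe. None passed an adjusted p of 0.05 in limma in any of the 6 comparisons. At an unadjusted p under 0.05, limma gave 1 of the 36 genes, for season on the CL side (9.92% of all probes). That gene was HSBP1, a binding partner of heat shock factor 1, with a change of −0.33 ± 0.15 and limma's unadjusted p of 0.0473 and adjusted p of 0.502, and a change of −0.24 without the dim array. For season on the CL side 23 of 36 lay above 0, with a median of 0.042 (6559 of 12381 probes in all, median 0.023). On the non-CL side 11 of 36 did, with a median of −0.029 (6184 of 12383 probes, median −8.2e-05). Over both sides 19 lay above 0, with a median of 0.0079 (6524 of 12391 probes, median 0.014). Next by unadjusted p on the CL side was DNAJC15, a J-domain gene, lower in summer by −0.28 ± 0.14 (limma's unadjusted p of 0.0707). That change was −0.34 to −0.24 with 1 array left out at a time, and −0.0034 ± 0.14 on the non-CL side. TRAP1, the mitochondrial HSP90, had a change of 0.28 ± 0.17 on the CL side (0.18 without CL-side autumn replicate 2), and HSPA14, an HSP70 of the ribosome, one of 0.29 ± 0.15. BAG6, which handles membrane proteins that fail to insert, read −6.68, −4.74 and −6.04 on the CL side in summer and −6.85, −6.34 and −6.43 in autumn, near the floor of −7.28. Its change was 0.72 ± 0.45, and 0.18 without the dim array.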

How the data were processed

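Each sample's total RNA (400 ng, per the labels' protocols) was labelled with Cy3 and hybridised alone to an Agilent bovine array. Feature Extraction turned the scans into spot values, in version 9.5.1.1 per the file headers (9.5 in the submitters' processing notes). The deposited processed signal is a linear intensity, background-subtracted within the array. The authors also deposited a log2 table, whose column medians were −2.79 to −2.61 and which correlated with the scanner values at 0.962 to 0.990 per array in the same direction. Its scale and centring are unstated, so it served as an alternative. Signals were divided by each array's 75th percentile over non-control probes, floored at −7.28 on the log2 scale, and 466 flagged spots were set to missing. A gene was read by its brightest kept probe with 9 or more unflagged arrays. Limma 3.58.1 in R 4.3.3 (lmFit, eBayes, two-sided, Benjamini-Hochberg over kept probes) fitted 4 group means (8 residual degrees of freedom), or 6 means of same-numbered horns (4). The fit was tested on simulated data. Errors are SE unless named. Permutation tests were two-sided with 100000 resamples. Samples were grouped by title. Deviations of same-numbered samples from their group means correlated at 0.139 to 0.501 between the sides of a season. Between the seasons of a side they correlated at 0.110 to 0.345. The numbers were taken as pairs from these values and not from the labels. Differently numbered samples were not set beside them, so the values do not show that equal numbers are true pairs. The replicate block rests on that choice. Gene names came from the files and the RefSeq table of ARS-UCD2.0, used for names only. Members, lists and the rule for naming genes (every member accounted for by class) were chosen with earlier results of these data known. Array number limits the precision of all values.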

Additional observations from a re-analysis of the deposited data

Results flagged for a closer look

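HSPA9, the mitochondrial HSP70, differed between the seasons in the direction of its side difference. By replicate number the CL side was above the non-CL side in all 3 summer pairs (0.22, 0.05 and 0.01) and below it in all 3 autumn pairs (−0.35, −0.14 and −0.27). The difference of the season change between the sides was 0.347 ± 0.22, with limma's unadjusted p of 0.138 and adjusted p of 0.999, so the test of the difference did not pass. With numbers as a replicate block the unadjusted p in limma was 0.0926. It was the only one of 26 genes with such opposite signs in every pair. The share of all probes with such signs was not counted, so this count has nothing to be set against.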

How the results depend on the processing

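No chaperone gene passed an adjusted p of 0.05 in limma under any alternative run, in any of the 6 comparisons. These were normexp background correction, quantile normalization, median centring, the authors' values, no filter on dim probes, only probes above background on all arrays, slide as a block, slide 1 only, slide 2 only for side in autumn, the replicate block, the mean of a gene's probes, flags ignored, and each array left out. Flags ignored, slide 2 only, correlations without CL-side summer replicate 2, and arrays left out for the other chaperone genes were added after seeing the data. Unadjusted p-values under 0.05 for season on the CL side went from 1 gene to 4 with no filter or with slide as a block. Over all probes they went from 1228 of 12381 to 1342 of 15185 with no filter and 1331 of 12381 with the slide block. On the non-CL side the slide block took them from 0 to 2 genes, and from 139 to 563 of 12383 probes. The slide block genes on the CL side were HSPH1 and HSP90AB1, lower in summer, and DNAJB1 and CHORDC1, higher in summer. On the non-CL side they were DNAJB1 and CHORDC1, both higher in summer. The median for side in autumn, −0.026, was 0.0015 with normexp and 0.0079 with the authors' values. With the replicate block the season medians were −0.020 on the CL side, −0.071 on the non-CL side and −0.072 over both, and the pairing changed no call at an adjusted p of 0.05. At an unadjusted p under 0.05 it took the count from 1 to 2 genes on the CL side and from 0 to 1 on the non-CL side.

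Signs turned for small values. HSPB1 on the CL side, 0.0070, was −0.023 with normexp, −0.053 with quantile normalization, −0.013 with median centring, −0.12 with slide as a block and −0.13 on slide 1. HSP90AA1 over both sides, 0.0062, was −0.020 with median centring and −0.0019 with slide as a block or on slide 1. Leaving out 1 array at a time gave −0.25 to 0.18 for HSPB1 and −0.068 to 0.13 for HSP90AA1 on the CL side. On the non-CL side it gave −0.17 to 0.11 for HSPB1, −0.11 to 0.040 for HSP90AA1 and −0.22 to 0.41 for CHORDC1. Over both sides it gave −0.076 to 0.067 for HSPB1 and −0.026 to 0.038 for HSP90AA1, and for CRYAB by side in summer −0.15 to 1.29. The cause was not tested.

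For HSPH1 with DNAJB1, r was −0.607 over 6 means of same-numbered samples (the replicate block), −0.525 without the 2 farthest arrays and −0.456 without CL-side summer replicate 2. Spearman's rho, −0.692 over 12 arrays, was −0.771, −0.697 and −0.600 there, and neither measure was past the adjusted threshold in these 3. CRYAB with HSPB6 was 0.565 and 0.612 under the last 2, neither past it. Over the 6 means, which still hold the dim array, its r was 0.939 (permutation p = 0.00694, adjusted 0.0347). Its rho there was 0.943 (permutation p = 0.0167, adjusted 0.0833), not past the adjusted threshold. Under the replicate block HSPA5 with HSP90B1 was −0.264, HSP90AA1 with HSPA8 −0.0276 and CCT2 with CCT5 −0.221. Without CL-side summer replicate 2 these pairs were −0.00153, −0.0616 and 0.579. HSPD1 with HSPE1 was not run, because no probe was named for HSPD1. With 3 arrays a group, the season interval of CRYAB was −0.90 to 1.89 on the CL side and −1.23 to 1.56 on the non-CL side.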
